A study of Mus musculus with 2 samples.

Results

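The genes described here are 32 markers of monocytes, of macrophages that develop from monocytes, and of the interstitial macrophages of the lung, among 38293 genes in the deposited table. They were taken by exact gene symbol, all 32 were found, and all 32 passed the minimum level set for a measured gene (a mean of at least 20 normalised reads over both libraries). For the comparison they were divided into 8 markers of classical monocytes, 11 of patrolling monocytes, 7 of interstitial or monocyte-derived macrophages, and 6 that the lineage shares.

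Messenger RNA came from lung resident macrophages taken from mice carrying Nippostrongylus brasiliensis, a parasitic worm that migrates through the lung as a larva. The first group was Axl-/-Mertk-/- mice, whose genotype label gives both copies of the genes of the receptor kinases AXL and MERTK as disrupted. The second was WT mice, and both groups were C57BL/6, 8 weeks old and infected with 625 third-stage larvae under the skin for 7 days. Uninfected mice were not analysed here. Each group had 1 library, and the labels do not say how many mice it pools. No difference below therefore has a replicate check, no p-value was computed, and every interval covers counting error only.

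Classical monocytes carry high Ly6C, leave the blood at sites of inflammation and can become macrophages. Patrolling monocytes carry low Ly6C, crawl along the inner wall of blood vessels and need the nuclear receptor NR4A1 to form. Interstitial macrophages live in the lung tissue between airspaces and vessels, whereas alveolar macrophages, which a gate like the one used here (CD45-positive, CD11c-high, Siglec-F-positive, CD11b-low) is meant to collect, live in the airspaces. Most of the markers are known from other cells as well. ACE and LY6A are also made by lung endothelium, LYVE1 by lymphatic vessels, haptoglobin and PGLYRP1 by neutrophils, and versican by fibroblasts.

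The Axl-/-Mertk-/- library held 15519680 reads and the WT library 15282882, and the values below are the deposited normalised reads. Axl had 3851 in Axl-/-Mertk-/- and 24789.8 in WT, a ratio of 15.5%, and Mertk had 2842 in Axl-/-Mertk-/- and 6484 in WT, a ratio of 43.8%. Both targeted genes were thus lower in the library labelled Axl-/-Mertk-/-. Which exons are disrupted is not given in the labels. All 15 measured alveolar macrophage markers were present and had a ratio of Axl-/-Mertk-/- over WT below 1, with a median log2 ratio of -0.22. The sort antigen genes Itgax (39176 in Axl-/-Mertk-/-, 40087 in WT) and Siglecf (2347 in Axl-/-Mertk-/- and 2566 in WT) were abundant in both. Itgam, the gene of CD11b, for which the gate took low cells, had 4436 in Axl-/-Mertk-/- and 4488 in WT, or 883 per kb in Axl-/-Mertk-/- and 893 in WT, close to the level of Siglecf per kb (841 in Axl-/-Mertk-/- and 919.6 in WT).

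Most markers of monocytes had a higher value in Axl-/-Mertk-/- than in WT (17 of 19), and most markers of interstitial or monocyte-derived macrophages a lower one (6 of 7). Over all measured genes the ratio was above 1 for 48.8% and below 1 for 51.2%. Of the 32 genes, 8 were at least 1.5-fold higher in Axl-/-Mertk-/-, and among all measured genes 1.74% were (205 of 11795). The 8 were Ly6c2, Plac8, Ly6i, Ace, Cd300e, Eno3, Adgre4 and Ly6a. Folr2 alone was at least 1.5-fold lower (1 of 32), where the share over all measured genes was 1.33%. These folds were read on normalised reads plus 10, which understates the fold of low genes.

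The counting interval of the ratio, the exact Clopper-Pearson 95% interval of the reads, lay above 1 for 15 of the 32 genes and below 1 for 4. Over all measured genes it lay above 1 for 10.1% and below 1 for 11.4%. For 13 of the 32 the interval included 1. The median log2 ratio was 0.21 over the 32 genes and -0.0047 over all measured genes.

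The median log2 ratio was 0.45 for classical monocyte markers, 0.31 for patrolling monocyte markers, 0.15 for the shared lineage markers and -0.31 for interstitial or monocyte-derived macrophage markers. The classical class thus lay 0.75 above the interstitial class, and the patrolling class 0.14 below the classical one. The gap between the monocyte classes depended on the settings. With 50 as the number added to the normalised reads, their medians were 0.2857 (classical) and 0.2861 (patrolling). Without the markers also known from neutrophils they were 0.310 (classical) and 0.308 (patrolling). Under the other settings tried the classical median was the higher, by varying amounts. In bulk RNA, more or fewer cells of a type cannot be told apart from more or less RNA per cell, and this holds for each value below. The classes were assigned with earlier results of these data known, and 1 library per genotype allows no test of the order.

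**Figure D1:**
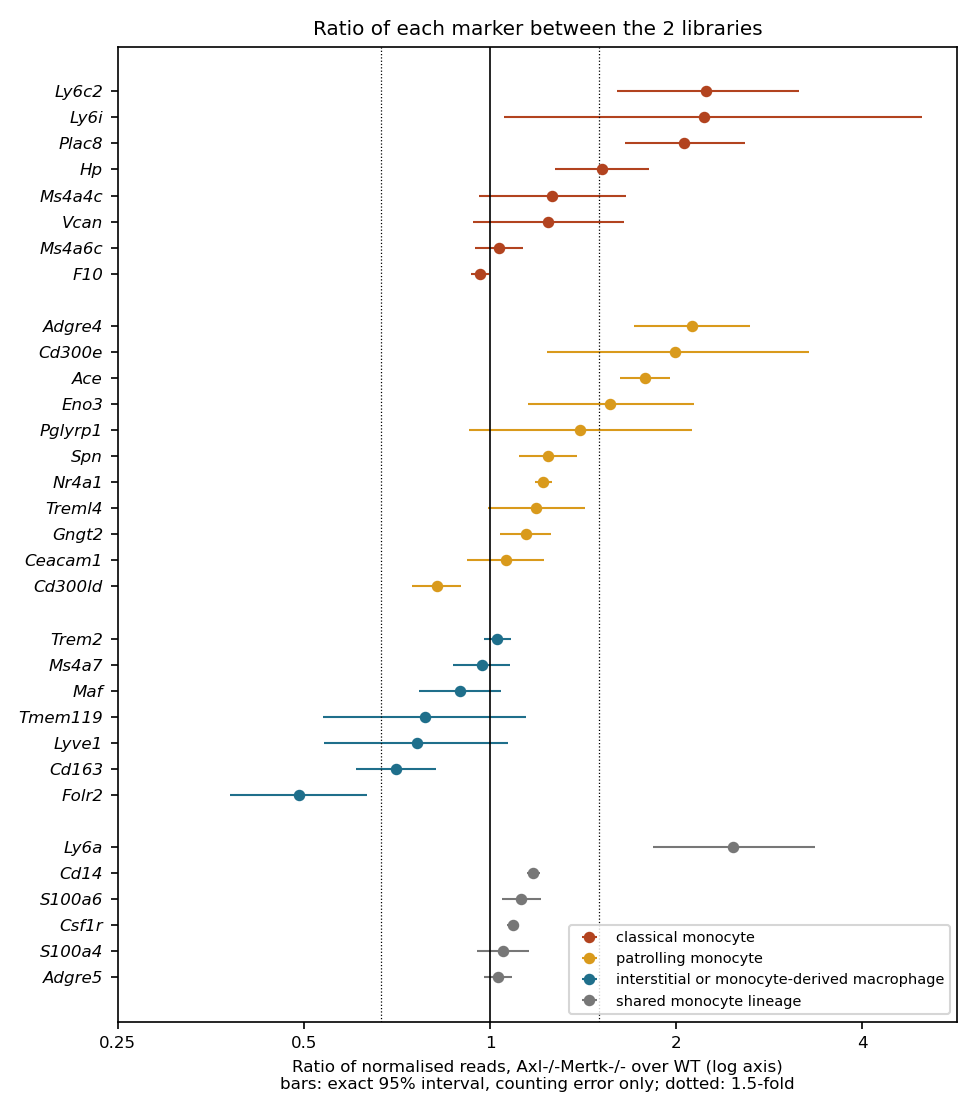
Ratio of normalised reads, Axl-/-Mertk-/- over WT, for each of the 32 markers by class on a log axis. Points are ratios without a pseudocount, bars the exact 95% intervals (counting error only), and dotted lines 1.5-fold. The interstitial class lies left of 1 apart from Trem2 (1.03), and the largest ratio is that of Ly6a (2.47).

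Promoters are shown for 3 of the genes past 1.5-fold, a classical monocyte marker, a patrolling monocyte marker and the interstitial marker that was lower, because they let the regulatory sequence of genes that differed in opposite directions be set side by side. The windows run from 250 bases before to 50 after a transcript start in RefSeq (GRCm38.p6) and are written 5′ to 3′ on the gene's strand. Capitals mark letters that match a motif of a factor of myeloid cells: GAGGAAGT (PU.1), TTGCNNAA (C/EBP) or TGCTGA (core letters of MAF sites), on either strand. The motifs TTCNNNGAA (GAS, bound by STAT factors) and AAAGGTCA (bound by NR4A1) were also searched, and no matches overlapped in these windows.
Ly6c2, minus strand, chr15:75111922-75112221: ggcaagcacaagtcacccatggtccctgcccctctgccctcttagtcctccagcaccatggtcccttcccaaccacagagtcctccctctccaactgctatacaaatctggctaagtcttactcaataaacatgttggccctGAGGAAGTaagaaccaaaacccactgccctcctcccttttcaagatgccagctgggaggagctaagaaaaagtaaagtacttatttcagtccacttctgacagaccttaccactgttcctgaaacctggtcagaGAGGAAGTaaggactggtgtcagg
Adgre4, plus strand, chr17:55749734-55750033: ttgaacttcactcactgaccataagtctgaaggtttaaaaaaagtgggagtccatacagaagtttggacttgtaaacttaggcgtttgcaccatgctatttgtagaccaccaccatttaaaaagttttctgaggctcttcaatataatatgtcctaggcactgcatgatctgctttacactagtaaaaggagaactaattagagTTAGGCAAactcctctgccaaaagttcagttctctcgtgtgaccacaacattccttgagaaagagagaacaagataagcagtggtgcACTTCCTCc
Folr2, minus strand, chr7:101857141-101857440: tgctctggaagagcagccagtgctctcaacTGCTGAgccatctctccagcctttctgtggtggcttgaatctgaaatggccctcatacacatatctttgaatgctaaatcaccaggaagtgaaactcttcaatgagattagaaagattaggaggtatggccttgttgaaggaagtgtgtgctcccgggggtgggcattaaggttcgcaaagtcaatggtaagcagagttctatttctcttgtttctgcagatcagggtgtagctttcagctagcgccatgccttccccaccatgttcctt

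The Ly6c2 window held the PU.1 letters at positions -108 and 26, counted from 0 at the transcript start, and both matches stood also in the overlapping window of its other listed start. The Adgre4 window held them on the opposite strand at position 41, together with a C/EBP match at -46. Both Folr2 windows held the MAF core, at -220 in the one printed and at -19 in that of its other start. Over all 32851 windows of this length the PU.1 letters stood in 3.20%, the C/EBP letters in 10.8% and the MAF core in 19.5%. Of the 9 markers past 1.5-fold, 7 had a listed promoter. These 7 genes had 11 windows, and a gene was counted if any of its windows matched. The shares above are per window, so the 2 cannot be compared directly. A window with the PU.1 letters was found for 2 of the 7 genes. One with the C/EBP letters was found for 2 (Adgre4 and Plac8) and one with the MAF core for 2 (Ace and Folr2). The GAS letters (8.30% of all windows) were found for Cd300e alone, and the NR4A1 letters (1.51%) for 0. The printed windows all held a match, whereas the window of Eno3 and the first listed windows of Plac8 and Ace held none. A match describes letters and not a site of binding.

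Among the classical monocyte markers, Ly6c2, which encodes the surface protein Ly6C by which these cells are defined, had 140.5 normalised reads in Axl-/-Mertk-/- and 62.8 in WT. Its ratio was 2.24 (95% interval 1.60 to 3.16). Plac8, a cysteine-rich protein of myeloid cells, had 296 in Axl-/-Mertk-/- and 144 in WT, a ratio of 2.06 (1.65 to 2.59). Both genes thus had intervals clear of 1. Ly6i, another membrane-anchored protein of the Ly6 family, had 29.5 in Axl-/-Mertk-/- and 13.3 in WT, from 25 reads in Axl-/-Mertk-/- and 11 in WT. Its ratio was 2.22, with a wide interval (1.06 to 5.01). Ly6i (74979534 to 74983430), Ly6a (74994877 to 74998031) and Ly6c2 (75108158 to 75111970) lie together on chromosome 15 of GRCm38.

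Hp, which encodes haptoglobin, the plasma protein that captures free haemoglobin, had 395 normalised reads in Axl-/-Mertk-/- and 261 in WT. Its ratio was 1.52 (1.27 to 1.81), and on the scale with 10 added it was just short of 1.5-fold. The matrix proteoglycan gene Vcan (139 in Axl-/-Mertk-/-, 112 in WT) had a ratio of 1.24 (0.938 to 1.65) whose interval included 1. So did the intervals of the multi-pass membrane protein genes Ms4a4c (148 in Axl-/-Mertk-/- and 117 in WT, ratio 1.26) and Ms4a6c (1231 in Axl-/-Mertk-/- and 1189.95 in WT, ratio 1.03). F10, the gene of coagulation factor X, was the most abundant of the class per kb and the only one with a ratio below 1. It had 7500.4 in Axl-/-Mertk-/- and 7783 in WT, a ratio of 0.964 (0.931 to 0.998), and gave 75.9% of the summed normalised reads of the class in Axl-/-Mertk-/- and 80.4% in WT. The pooled ratio of the class, which F10 dominates, was 1.02 (0.990 to 1.05).

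Of the 11 patrolling monocyte markers, 10 had a ratio above 1 and 4 were at least 1.5-fold higher. Adgre4, an adhesion receptor related to F4/80, had 322 normalised reads in Axl-/-Mertk-/- and 152 in WT, a ratio of 2.12 (1.71 to 2.64). Cd300e, an activating receptor of the CD300 family, had 64.9 in Axl-/-Mertk-/- and 32.6 in WT, a ratio of 1.99 (1.24 to 3.29). Ace, the angiotensin-converting enzyme, had 1514 in Axl-/-Mertk-/- and 849.6 in WT. With a ratio of 1.78 (1.62 to 1.96) it was the only one of the 12 markers with a mean of 1000 or more that passed 1.5-fold. Eno3, the muscle form of the glycolytic enzyme enolase, had 132 in Axl-/-Mertk-/- and 84.5 in WT, a ratio of 1.56 (1.15 to 2.14) that lay close to the threshold.

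The remaining patrolling markers lay nearer 1. Nr4a1, the nuclear receptor on which patrolling monocytes depend and also an immediate early gene, was abundant, with 10654.5 normalised reads in Axl-/-Mertk-/- and 8729 in WT. Its ratio was 1.22 (1.18 to 1.26). Spn, which encodes the sialomucin CD43 used to identify patrolling monocytes, had 908 in Axl-/-Mertk-/- and 731 in WT, a ratio of 1.24 (1.11 to 1.38). Gngt2, a G protein gamma subunit, had a ratio of 1.14 (1.04 to 1.26), with 1117 in Axl-/-Mertk-/- and 978 in WT. These 3 genes had intervals above 1 without reaching 1.5-fold.

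The intervals of Treml4, a receptor of the TREM family (327 in Axl-/-Mertk-/-, 275 in WT, ratio 1.19), and of Pglyrp1, which binds bacterial peptidoglycan (70.8 in Axl-/-Mertk-/- and 50.7 in WT, ratio 1.40), included 1. So did that of the adhesion molecule gene Ceacam1 (471 in Axl-/-Mertk-/- and 444 in WT, ratio 1.06, 0.918 to 1.23). Ceacam1 lies 0.280 Mb from Axl on chromosome 7 and Pglyrp1 6.87 Mb from it, whereas the other markers lie more than 20 Mb from both targeted genes or on other chromosomes. The exception in direction was Cd300ld, another CD300 receptor, which had 1008 normalised reads in Axl-/-Mertk-/- and 1229.8 in WT, a ratio of 0.820 (0.748 to 0.899). Within this class Cd300e and Cd300ld, both on chromosome 11, thus lay on opposite sides of 1. The pooled ratio of the class was 1.22 (1.19 to 1.25), of which Nr4a1 gave 64.2% of the sum in Axl-/-Mertk-/- and 64.4% in WT.

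The interstitial or monocyte-derived macrophage markers went the other way, with a ratio below 1 for 6 of 7 and an interval below 1 for 2. All 15 alveolar macrophage markers also had a ratio below 1, so this direction was not particular to the class. Folr2, the gene of folate receptor beta, a marker of macrophages along vessels and nerves, had 111 normalised reads in Axl-/-Mertk-/- and 226 in WT. Its ratio was 0.492 (0.380 to 0.633). Cd163, the scavenger receptor that takes up haemoglobin bound to haptoglobin, had 365 in Axl-/-Mertk-/- and 518 in WT, a ratio of 0.705 (0.607 to 0.817), so its level and that of the ligand gene Hp differed in opposite directions.

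Lyve1, a hyaluronan receptor that marks one kind of interstitial macrophage together with Folr2, had 74.4 in Axl-/-Mertk-/- and 97.8 in WT, a ratio of 0.761 (0.538 to 1.07). Maf, the transcription factor c-MAF, had 386 in Axl-/-Mertk-/- and 432 in WT, a ratio of 0.893 (0.767 to 1.04). Tmem119, a membrane protein best known from microglia, had 62.6 in Axl-/-Mertk-/- and 79.7 in WT, a ratio of 0.785 (0.537 to 1.14). The ratio was thus below 1 for all 3 genes, but their intervals included 1. Ms4a7 (814 in Axl-/-Mertk-/- and 839.96 in WT, ratio 0.970) and Trem2, a receptor for lipids and apoptotic cells (3644 in Axl-/-Mertk-/- and 3547 in WT, ratio 1.03, 0.976 to 1.08), were the most abundant of the class per kb and the nearest to 1. The pooled ratio of the class was 0.951 (0.913 to 0.990), of which Trem2 gave 66.8% of the sum in Axl-/-Mertk-/- and 61.8% in WT.

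The markers that the lineage shares all had ratios above 1, and 5 of the 6 were below 1.5-fold. Csf1r, the receptor for the macrophage growth factor CSF1, had 18423 normalised reads in Axl-/-Mertk-/- and 16895 in WT, a ratio of 1.09 (1.07 to 1.12). Cd14, the co-receptor for bacterial lipopolysaccharide, had 17260.2 in Axl-/-Mertk-/- and 14684 in WT, a ratio of 1.18 (1.15 to 1.20). Of the calcium-binding proteins, S100a6 (1897 in Axl-/-Mertk-/- and 1688 in WT) had a ratio of 1.12 (1.05 to 1.21) and S100a4 (1048 in Axl-/-Mertk-/- and 998 in WT) one of 1.05 (0.954 to 1.16). Adgre5, the adhesion receptor CD97, had 3614 in Axl-/-Mertk-/- and 3508 in WT, a ratio of 1.03 (0.979 to 1.08). The other was Ly6a, which encodes the surface protein Sca-1, with 188 in Axl-/-Mertk-/- and 76.0 in WT. Its ratio of 2.47 (1.83 to 3.36) was the highest of all 32.

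Per length, these markers spanned a wide range. Cd14 was highest, at 9965 normalised reads per kb of merged exon in Axl-/-Mertk-/- and 8478 in WT, followed in Axl-/-Mertk-/- by Csf1r (3191, against 2926 in WT), Nr4a1 (3036, against 2488 in WT) and F10 (2746, against 2850 in WT). By comparison the alveolar macrophage antigen gene Siglecf was at 841 per kb in Axl-/-Mertk-/- and 919.6 in WT, and 7 of the 32 markers were above it in both libraries. The same 11 genes filled the first 11 places in both libraries, where Nr4a1 and F10 alone changed places. Below them the order differed, and the defining marker Ly6c2 was at 51.3 per kb in Axl-/-Mertk-/- and 22.9 in WT. Adgre4 stood in place 19 in Axl-/-Mertk-/- and 25 in WT, and Folr2 in place 23 in Axl-/-Mertk-/- and 16 in WT. Vcan was last in both, at 9.63 in Axl-/-Mertk-/- and 7.76 in WT.

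**Figure D2:**
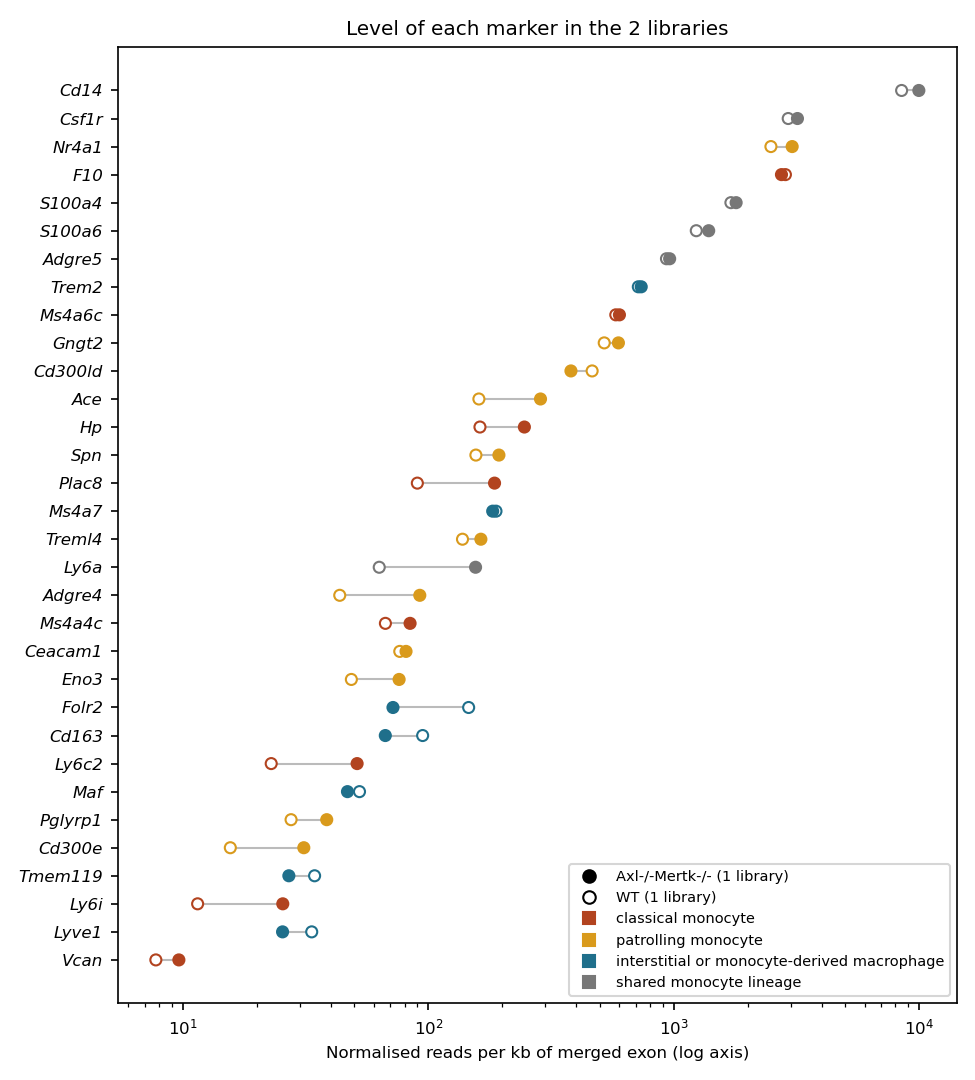
Level of each of the 32 markers in normalised reads per kb of merged exon (log axis), filled circles for Axl-/-Mertk-/- and open circles for WT, 1 library each, ordered by the level in Axl-/-Mertk-/-. Cd14 leads at 9965 per kb in Axl-/-Mertk-/- and 8478 in WT, and the wide gaps between circles (Ly6a, Ly6c2, Ly6i, Adgre4, Plac8, Folr2, Cd300e and Ace) lie in the middle and lower part of the range.

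The higher ratios belonged mostly to genes of low or middle abundance. In a division made after the values had been seen, the 13 classical and patrolling markers with a mean under 1000 normalised reads all had a ratio above 1. Of these, 6 were at least 1.5-fold higher (the share of all measured genes at each level is given below), and their median log2 ratio was 0.58. Their pooled ratio was 1.39 (1.31 to 1.47), from a sum of 3444 normalised reads in Axl-/-Mertk-/- and 2480.1 in WT. The 6 classical and patrolling markers with a mean of 1000 or more had a median log2 ratio of 0.12, 4 of them above 0.

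The share of genes past 1.5-fold was larger among low genes. Among all measured genes 9.02% were at least 1.5-fold higher with a mean from 20 to 50, 4.28% from 50 to 100, 1.78% from 100 to 200, 0.457% from 200 to 1000 and 0.114% from 1000 upwards. The markers past that fold were 2 of 2 in the lowest band (Ly6i and Cd300e), 0 of 3 in the next, 3 of 6 from 100 to 200 (Ly6c2, Eno3 and Ly6a), 2 of 9 from 200 to 1000 (Plac8 and Adgre4) and 1 of 12 above (Ace).

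**Figure D3:**
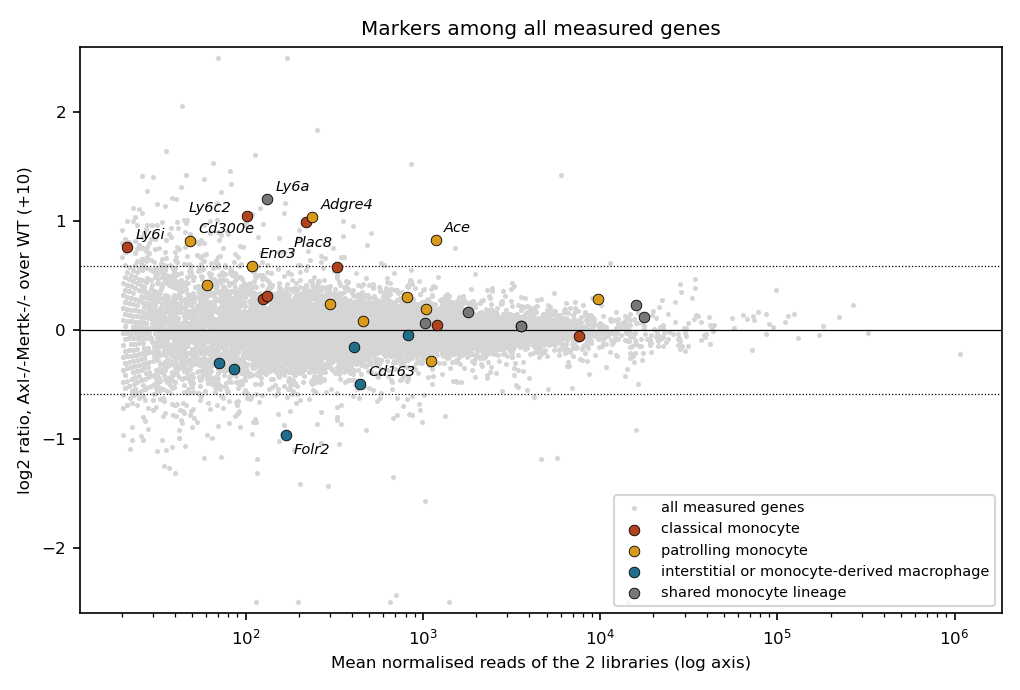
Log2 ratio of normalised reads plus 10, Axl-/-Mertk-/- over WT, against the mean of both libraries (log axis) for 11795 measured genes in grey and the 32 markers coloured by class. Grey points beyond 2.5 in either direction are drawn at 2.5, and dotted lines mark 1.5-fold. Ace stands above the cloud at its abundance, whereas Ly6i and Cd300e lie where low counts spread the cloud widely.

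Some of these reads are uncertain because near-identical copies of 7 of the markers exist, and how multiply matching reads were counted is not known. The transcript of Ly6c2 matches that of Ly6c1 at 97.6% identity over 822 bases, and Ly6c1 itself had 29.5 normalised reads in Axl-/-Mertk-/- and 9.65 in WT. Ly6a and Ly6i match at 92.6% over 336 bases, Ms4a4c and Ms4a4b at 91.6% over 812 bases, and Ceacam1 and Ceacam2 at 91.2% over 2045 bases. Ms4a6c has copies in Ms4a6b and Ms4a6d, and Cd300ld in Cd300lf and Cd300ld2. Without these 7 genes the count at least 1.5-fold higher was 5 of 25, and the class medians kept their signs. Folr2 overlaps Gm10602 on the opposite strand (23.6 normalised reads in Axl-/-Mertk-/- and 19.3 in WT), and because the counting strand is not known the reads of the overlap cannot be assigned with certainty.

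Other genes known from the same cells were compared from lists that were also chosen with earlier results in view. Of 46 such genes 45 were measured, of which 4 were at least 1.5-fold higher in Axl-/-Mertk-/- and 0 at least 1.5-fold lower. Over all measured genes these shares were 1.74% and 1.33%. Of the 12 patrolling monocyte companions 3 were at least 1.5-fold higher. Cx3cr1, the fractalkine receptor that marks patrolling monocytes and interstitial macrophages, had 394 normalised reads in Axl-/-Mertk-/- and 229 in WT, a ratio of 1.72 (1.43 to 2.07). The transcription factor gene Pou2f2 (207 in Axl-/-Mertk-/- and 122 in WT) had a ratio of 1.69 (1.32 to 2.19) and lies 0.578 Mb from Axl. Tgfbr3, a co-receptor for TGF-beta named after its value had been seen, had a ratio of 2.51 (1.38 to 4.78). Its mean of 33.9 lay in the band from 20 to 50, where 9.02% of all measured genes were at least 1.5-fold higher. The survival gene Bcl2 had a ratio of 1.23. The lowest in this list with a mean of at least 50 were the scavenger receptor gene Cd36 (ratio 0.862), Clec4a3, a C-type lectin (0.896), and the transcription factor gene Klf2 (0.909).

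Of the 8 classical monocyte companions 1 was at least 1.5-fold higher, Ifitm6, named after its value had been seen, with 66.1 in Axl-/-Mertk-/- and 20.5 in WT. The mean of Ifitm6, 43.3, lay in the same low band as that of Tgfbr3. Ccr2, the receptor by which classical monocytes leave the bone marrow, was abundant, with 6121 in Axl-/-Mertk-/- and 4823 in WT, a ratio of 1.27 (1.22 to 1.32). The factor XIII gene F13a1 had a ratio of 1.07 (0.945 to 1.20). The median log2 ratio was 0.072 for this list and 0.16 for the patrolling one, both smaller than those of the corresponding markers.

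Companions of interstitial macrophages lay on both sides of 1. Of 17 measured, 10 had a ratio above 1 and 7 below, 8 had an interval above 1 and 4 one below, 0 passed 1.5-fold in either direction, and the median log2 ratio was 0.098, against -0.31 for the 7 markers. The complement genes C1qa, C1qb and C1qc, characteristic of tissue macrophages other than alveolar ones, had ratios of 1.10, 1.10 and 1.05. With a mean of at least 50, highest were the apolipoprotein gene Apoe (1.39), which lies 6.06 Mb from Axl, Tmem176a (1.30) and the Fc receptor gene Fcgr1 (1.21). Lowest were Fcrls (0.719, 0.665 to 0.778), the scavenger receptor gene Stab1 (0.860) and the mannose receptor gene Mrc1 (0.914). The 8 genes known from macrophages newly recruited to injured lung had a median log2 ratio of -0.012, with Mmp14 (1.30) and Spp1 (1.07) highest and Mmp12 (0.937) and Gpnmb (0.956) lowest.

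Markers of cells outside the sort gate differed between the libraries as well. Of 7 measured genes of vascular endothelium all 7 had a ratio above 1 and 6 were at least 1.5-fold higher. Over all 8 listed genes of this cell type the summed level was 1128 normalised reads in Axl-/-Mertk-/- and 769 in WT. The pooled ratio was 1.47 (1.33 to 1.63) and the median log2 ratio 0.86. Pecam1 (ratio 1.12) gave 50.5% of this sum in Axl-/-Mertk-/- and 65.9% in WT, so the pooled ratio lay below that of most genes in the list. All 5 red cell genes were at least 1.5-fold higher, with a sum of 752 in Axl-/-Mertk-/- and 247 in WT and a pooled ratio of 3.04 (2.59 to 3.57). Ace (ratio 1.78) and Ly6a (2.47), which endothelium also makes, lay between the lowest of these endothelial genes, Pecam1 (1.12), and the highest, Cldn5 (3.51). The part of endothelial and red cell RNA in the higher blood monocyte markers was not tested. Without 4 markers also known from endothelium (Ace, Ly6a, Ceacam1 and Lyve1) 6 of 28 were at least 1.5-fold higher. Without 3 known from neutrophils (Hp, Pglyrp1 and Ceacam1) 8 of 29 were. Ly6c2, whose near-identical copy Ly6c1 had a ratio of 3.06 (1.34 to 7.84), was kept in both, and neither list need be complete. Both subsets were chosen after seeing the data.

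Neutrophil genes summed to 2160.2 normalised reads in Axl-/-Mertk-/- and 1768 in WT over 10 genes. Csf3r, which monocytes also express, gave 46.2% of the sum in Axl-/-Mertk-/- and 41.1% in WT. Of the 6 measured, S100a9 was at least 1.5-fold higher (264 in Axl-/-Mertk-/- and 135 in WT) and Ltf at least 1.5-fold lower (54.3 in Axl-/-Mertk-/- and 95.3 in WT), and the defining marker Ly6g had 1.18 in Axl-/-Mertk-/- and 0 in WT. Sums over dendritic cell genes (1906 in Axl-/-Mertk-/-, 1685 in WT) and T and NK cell genes (382 in Axl-/-Mertk-/- and 303 in WT) were higher. Those over B cell genes (366 in Axl-/-Mertk-/- and 402 in WT) and fibroblast genes (368 in Axl-/-Mertk-/- and 426 in WT) were slightly lower. Their pooled ratios were 0.911 (0.778 to 1.07) and 0.865 (0.740 to 1.01), and both intervals included 1. The sum over lung epithelial genes was lower (8671 in Axl-/-Mertk-/- and 9995 in WT, pooled ratio 0.868, 0.841 to 0.895). Of this sum Cdh1 gave 68.2% in Axl-/-Mertk-/- and 67.0% in WT. Of the 5 measured, Cdh1 (ratio 0.884) and Scgb1a1 (0.820) had an interval below 1, and for 3 it included 1. Cdh1 stood at 1293 per kb in Axl-/-Mertk-/- and 1463 in WT, and Epcam at 57.5 in Axl-/-Mertk-/- and 61.0 in WT. Which cells the Cdh1 reads came from was not tested. The 4 eosinophil genes summed to 76.7 in Axl-/-Mertk-/- and 82.1 in WT. Of these, Ccr3 had 50.8 in Axl-/-Mertk-/- and 54.3 in WT, and Epx 0 in Axl-/-Mertk-/- and 1.21 in WT. Of 4 genes of lymphatic endothelium, which also makes LYVE1, Prox1 was lower (66.1 in Axl-/-Mertk-/- and 95.3 in WT, ratio 0.693, 0.483 to 0.989), Flt4 was higher (23.6 in Axl-/-Mertk-/- and 7.24 in WT) and Pdpn had a ratio of 1.02. Ccl21a was at 0 in both, which by counting error alone allows up to 3.54 in Axl-/-Mertk-/- and 3.62 in WT. This symbol had 2 gene entries, and how multiply matching reads were counted is not known, so its level may be higher. The part of these cells in the marker values was not tested.

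**Figure D4:**
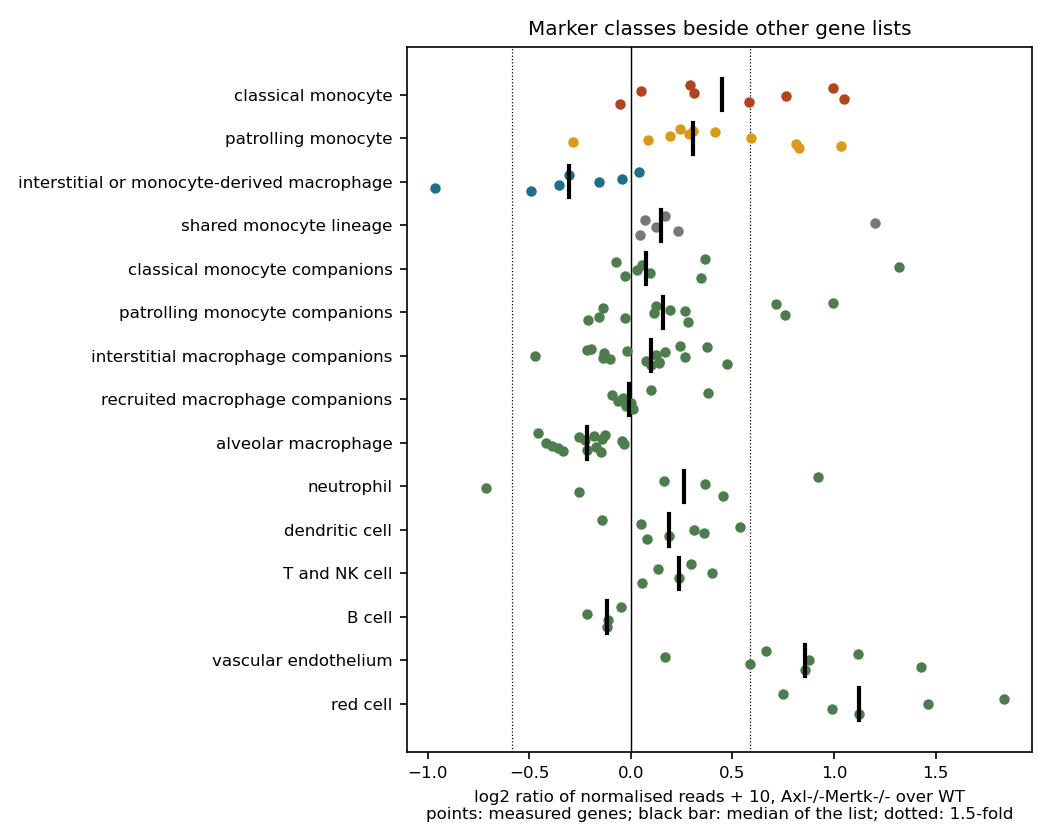
Log2 ratio of normalised reads plus 10, Axl-/-Mertk-/- over WT, for every measured gene of each list (points), with the list's median (black bar) and 1.5-fold (dotted). Both monocyte classes lie mostly right of 0, the interstitial class lies mostly left (median -0.31), all alveolar macrophage genes lie left (median -0.22), and vascular endothelium (0.86) and red cell genes (1.12) lie farthest right.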

How the data were processed

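Macrophages were sorted from infected lungs, and polyadenylated RNA was made into strand-marked libraries, per the labels' protocols. The table deposited by the authors holds a signal per gene, namely its reads divided by 1 size factor per library, with TopHat2, GRCm38 and DESeq2 named in the submitters' processing notes. The sources used here give no versions, counting program or strand setting. Whole reads could be recovered from the spacing of the values in each library (100% whole within 1e-06), 1 read being worth 1.18 normalised reads in Axl-/-Mertk-/- and 1.21 in WT. The table has 0 columns of other samples.

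Since 1 library per group leaves no residual degrees of freedom, no count test was run, and genes were compared by size: log2 of Axl-/-Mertk-/- plus 10 over WT plus 10, for genes with a mean of at least 20, past 1.5-fold. Ratios printed with an interval carry no pseudocount. The labels name no molecular identifiers, so reads may repeat molecules and the exact 95% intervals cover counting error only. Rule and interval were tried on simulated reads that varied by counting error alone, the error the interval assumes. Differences between mice or sorts were not simulated, so the trial says nothing about them. All markers were named, and of companion lists up to 3 genes in each direction with a mean of at least 50, some of which are not reported here. The members and lists were chosen with earlier results of these data known. Alternatives were the pseudocount, the minimum mean, the scaling (TMM from edgeR 4.0.16, median of ratios, library totals) and members left out. Positions and exons are from GENCODE vM21, near copies from BLAST+ 2.17.0 (at least 90% identity over 300 bases). Of the 32 markers 22 had a promoter in the RefSeq table. Python 3.11.15, SciPy 1.17.1 and matplotlib 3.10.9 were used.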

Additional observations from a re-analysis of the deposited data

How the results depend on the processing

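The count of markers at least 1.5-fold higher, 8 with a pseudocount of 10, was 5 with a pseudocount of 50 (without Ly6i, Cd300e and Eno3) and also 5 without the 7 markers that have a near-identical copy. Over all 11 alternatives it lay between 5 and 9, the ninth gene being Hp, and the count at least 1.5-fold lower was 1 in each. The median log2 ratio lay between 0.29 and 0.47 for classical monocyte markers, between 0.29 and 0.41 for patrolling ones, between 0.12 and 0.16 for shared ones and between -0.34 and -0.16 for interstitial or monocyte-derived macrophage markers. Under the 9 alternatives other than the pseudocount, which the intervals do not use, the number of intervals above 1 lay between 12 and 16, and below 1 between 3 and 4. Scaling shifted log2 ratios by at most 0.016, and under 5 alternatives no single marker changed sign. Leaving out endothelial or neutrophil-expressed markers was chosen after seeing the data. No paired analysis was possible because each genotype had 1 library, and for the same reason no replicate could be left out. Depth limits Ly6i (25 reads in Axl-/-Mertk-/- and 11 in WT), Cd300e (55 in Axl-/-Mertk-/- and 27 in WT) and Pglyrp1 (60 in Axl-/-Mertk-/- and 42 in WT) most.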

Other observations

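Several of the markers belong to gene families, and the rest of each family can be read from the same libraries. These families were taken by symbol prefix after the marker values had been seen, with every measured gene included. Of 5 measured Ly6 genes the 3 markers Ly6a, Ly6c2 and Ly6i were at least 1.5-fold higher in Axl-/-Mertk-/-, whereas the abundant Ly6e had 6635 normalised reads in Axl-/-Mertk-/- and 5919.6 in WT, a ratio of 1.12 (1.08 to 1.16), and Ly6d one of 0.680 (0.336 to 1.35). Ly6c1, the near-identical copy of Ly6c2, had a mean just under the minimum of 20 and a ratio of 3.06 (1.34 to 7.84). Of 7 Cd300 genes Cd300e alone passed 1.5-fold. Cd300a, an inhibitory receptor, had 2311 in Axl-/-Mertk-/- and 1922.5 in WT, a ratio of 1.20 (1.12 to 1.29), and the ratios of the 5 that are not markers lay between 0.858 and 1.22.

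Of 8 measured Ms4a genes 0 passed 1.5-fold in either direction, with ratios between 0.870 and 1.36. Ms4a8a, with the most reads, had 4099.6 normalised reads in Axl-/-Mertk-/- and 4710.3 in WT, and the highest ratio was that of Ms4a6b (163 in Axl-/-Mertk-/- and 119 in WT, interval 1.05 to 1.78). In the adhesion receptor family Adgre4 (ratio 2.12) stood apart in value from Adgre1, which encodes the macrophage antigen F4/80 (5406 in Axl-/-Mertk-/- and 5502 in WT, ratio 0.983), and from Adgre5 (1.03). Of 8 S100a genes S100a9 alone was at least 1.5-fold higher.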
